A study of Mus musculus with 6 samples.

Results

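The genes described here encode ligands and receptors of platelet-derived growth factor (PDGF) and fibroblast growth factor (FGF) signalling, measured in 6 mouse colorectal tumours. The 10 genes were chosen by name for their known role: the PDGF ligands Pdgfa, Pdgfb, Pdgfc and Pdgfd, the PDGF receptors Pdgfra and Pdgfrb, the FGF ligands Fgf1, Fgf2 and Fgf7, and the FGF receptor Fgfr1. All 10 had a probe set annotated to them alone, out of 22180 genes measured that way, and each had 1 such probe set. The tumours came from mouse colorectal cancer injected either into white adipose tissue, which stores fat, or into tissue that is not adipose, and were taken at 1 to 1.5 cm3. There were 3 mice per site and 1 Affymetrix whole-transcript array per tumour, which reads a gene with probes spread along its exons. The cancer line, the strain, sex and age of the mice and the exact injection sites are not given in these sources. A whole tumour holds cancer cells and host cells together.

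PDGF chains pair into dimers. The A, B and C chains act on the receptor alpha (Pdgfra), and the B and D chains act on the receptor beta (Pdgfrb); both receptors are tyrosine kinases found mainly on fibroblasts, fat cell precursors, pericytes and smooth muscle cells. The FGF ligands need heparan sulphate to bind their receptor kinases. Both families signal through the Ras and MAP kinase pathway and shape the connective tissue and vessels of tumours and the growth of fat tissue.

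Values are the deposited log2 signals, so a difference of 1 is a doubling, and differences are given as white adipose minus non-adipose. Over all genes the arrays correlated at 0.983 to 0.995 with each other. The marker genes of several cell types were examined on each array. Skin epithelial markers averaged 8.55 over 9 genes on white adipose replicate 1 and 6.15 on non-adipose replicate 3, against 5.13 to 5.30 on the other 4 arrays. Skeletal muscle markers averaged 6.49 and 5.96 over 10 genes on non-adipose replicates 3 and 1, against 5.07 to 5.21 on the other 4. Adipoq, the fat cell hormone adiponectin, lay between 4.10 and 4.27 on all 6 arrays, at percentile 15.6 of all genes by signal. The mean of 9 adipocyte markers was 5.57 to 5.76 in non-adipose and 5.49 to 5.90 in white adipose tumours. Among these 9, 5 lay below the median signal of all genes. Fabp4 (5.78 to 7.86) was lowest and Pparg (5.39 to 7.53) highest on white adipose replicate 1. Both were named after their values were seen. Of 10 intestinal epithelial markers, 7 lay below the median signal of all genes, among them the epithelial adhesion gene Epcam at 4.61 to 5.29, while the keratins Krt8 and Krt18 lay at 9.14 to 10.04.

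RefSeq promoter windows (build GRCm38.p6, 250 bases before to 50 after the start) were found for 6 of the 10 genes: Pdgfa, Pdgfc, Pdgfd, Pdgfra, Fgf2 and Fgf7. The windows of Pdgfra and Fgf7 are shown, since Pdgfra had the largest difference between the sites and Fgf7 was the 1 gene whose groups did not overlap. They are chr5:75152001-75152300 and chr2:126034408-126034707, both on the plus strand, read 5′ to 3′ with CG pairs in capitals.
Pdgfra: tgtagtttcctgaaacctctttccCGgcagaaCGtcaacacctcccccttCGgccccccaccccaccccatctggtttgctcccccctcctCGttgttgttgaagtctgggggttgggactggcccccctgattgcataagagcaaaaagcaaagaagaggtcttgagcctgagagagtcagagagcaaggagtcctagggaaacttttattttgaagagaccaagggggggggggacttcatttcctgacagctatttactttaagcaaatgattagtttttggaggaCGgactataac
Fgf7: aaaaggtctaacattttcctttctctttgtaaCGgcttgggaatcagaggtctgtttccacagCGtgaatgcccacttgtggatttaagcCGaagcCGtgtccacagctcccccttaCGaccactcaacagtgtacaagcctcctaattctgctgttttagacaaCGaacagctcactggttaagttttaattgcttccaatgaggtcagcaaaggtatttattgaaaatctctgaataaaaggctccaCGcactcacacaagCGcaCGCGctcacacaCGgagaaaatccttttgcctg
The Pdgfra window holds 5 CG pairs and the Fgf7 window 11, against a median of 7 over 32851 windows. Neither holds the GC box GGGCGG, searched on both strands, which 35.7% of all windows hold. Of the other windows, both of those for Pdgfa (24 and 37 CG pairs) and that of Fgf2 (24) hold it, and those of Pdgfc and Pdgfd (8 each) do not. The TATA motif TATAAA, searched the same way and held by 13.6% of windows, was found in that of Pdgfd alone. The AP-1 motif TGACTCA (5.2% of windows) and the E-box CACGTG (7.15%), also searched on both strands, were in none of these 7 windows.

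None of the 10 genes passed the test between the sites. By limma, adjusted over all 22180 genes, the adjusted p lay between 0.936 and 0.996, and 0 of the 10 genes reached 0.05, as did 0% of all genes. At an unadjusted p under 0.05 there were also 0 of the 10 genes, against 3.79% of all genes, and the smallest unadjusted p of the 10 was 0.0632, for Fgf7. The mean in white adipose tumours was above that in non-adipose tumours for 4 genes and below it for 6, with a median difference of -0.09 against -0.00043 over all genes. The 3 FGF ligands all had lower means in white adipose tumours and both PDGF receptors had higher ones. For 1 of the 10 genes every array of one site lay below every array of the other, against 7.31% of all genes.

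**Figure D1:**
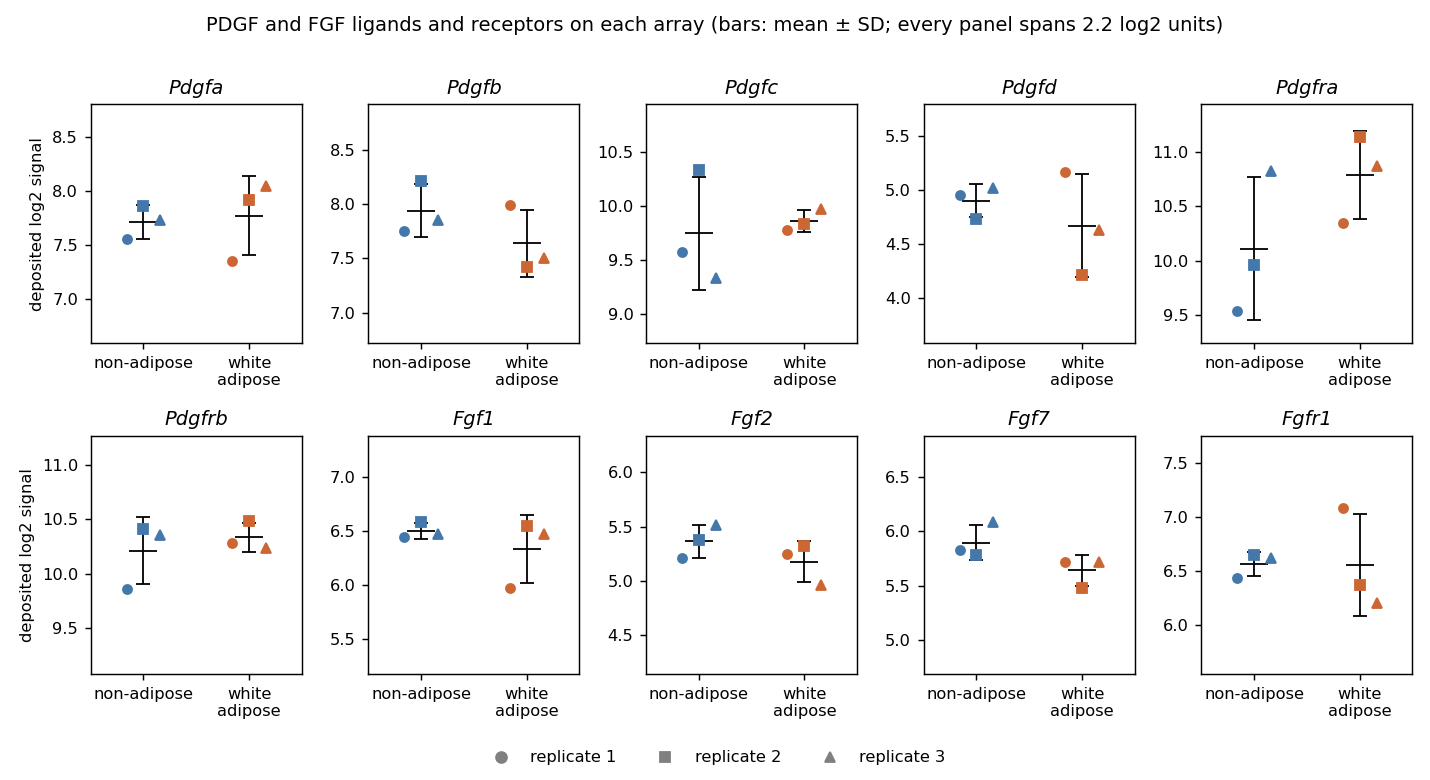
Deposited log2 signal (vertical axis, every panel spanning the same width) of each of the 10 genes on the 3 non-adipose arrays (blue) and the 3 white adipose arrays (orange); the symbol shape gives the replicate number and bars are the mean and SD of the group. The groups overlap in every panel but that of Fgf7, and Pdgfra spreads the most, from 9.54 to 11.14.

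Among the PDGF ligands, Pdgfb, the B chain that endothelial cells release to recruit pericytes, had the largest difference. Pdgfb stood at 7.75, 8.22 and 7.85 on non-adipose replicates 1, 2 and 3, and at 7.99, 7.42 and 7.50 on white adipose replicates 1, 2 and 3. White adipose replicates 2 and 3 were thus the lowest of the 6 arrays, while replicate 1 lay among the non-adipose tumours. The means were 7.94 ± 0.24 (SD, n = 3) and 7.64 ± 0.31 (SD, n = 3), a difference of -0.30 (SE 0.19; 95% interval -0.76 to 0.16), or 1.23-fold, with a limma adjusted p of 0.936.

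Pdgfd, the D chain, which is secreted in a latent form and acts on the receptor beta, gave the same division. It stood at 4.95, 4.73 and 5.02 in non-adipose and at 5.16, 4.21 and 4.63 in white adipose tumours. White adipose replicate 1 was the highest array and replicates 2 and 3 the lowest. The difference was -0.23 (SE 0.24; 95% interval -0.81 to 0.35). Pdgfd lay at percentile 25.7 of all genes by signal, and no detection call was used, so its lowest values may be background.

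Pdgfa, the A chain, which acts on the receptor alpha, stood at 7.55, 7.86 and 7.73 in non-adipose tumours and at 7.35, 7.92 and 8.04 in white adipose tumours. Here white adipose replicate 1 was the lowest array and replicates 2 and 3 the highest, the reverse of Pdgfd. The difference between the sites was 0.06 (SE 0.19; 95% interval -0.41 to 0.52).

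Pdgfc, the other latent ligand, which acts on the receptor alpha once cleaved, varied mainly among the non-adipose tumours. It stood at 9.58, 10.34 and 9.34 there and at 9.78, 9.83 and 9.97 in white adipose tumours. All 3 white adipose values lay within the non-adipose range. The SD was 0.52 in non-adipose and 0.10 in white adipose tumours (n = 3 each), and the difference was 0.11 (SE 0.25; 95% interval -0.51 to 0.73).

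The largest difference of the 10 genes belonged to Pdgfra, the receptor alpha, a common marker of fibroblasts and of fat cell precursors. Its log2 signal was 9.54, 9.96 and 10.83 on non-adipose replicates 1, 2 and 3, and 10.35, 11.14 and 10.88 on white adipose replicates 1, 2 and 3. The groups overlapped, since non-adipose replicate 3 lay above white adipose replicate 1. The means were 10.11 ± 0.66 (SD, n = 3) and 10.79 ± 0.40 (SD, n = 3), a difference of 0.68 (SE 0.36; 95% interval -0.21 to 1.57), or 1.60-fold. It did not pass (limma adjusted p = 0.936). The difference was 1.04 without non-adipose replicate 3 and 0.39 without non-adipose replicate 1. In whole tumours, more cells that carry a gene and more RNA of it per cell cannot be told apart.

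Pdgfrb, the receptor beta of pericytes, smooth muscle cells and fibroblasts, varied less. It stood at 9.86, 10.42 and 10.36 in non-adipose and at 10.28, 10.49 and 10.24 in white adipose tumours. Apart from the low value of non-adipose replicate 1, the arrays lay between 10.24 and 10.49. The difference was 0.13 (SE 0.16; 95% interval -0.28 to 0.53). Without non-adipose replicate 1 it was -0.05.

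Fgf7, the keratinocyte growth factor, made by mesenchymal cells and acting on an epithelial form of Fgfr2, was the 1 gene whose groups did not overlap. It stood at 5.82, 5.78 and 6.09 in non-adipose tumours and at 5.72, 5.48 and 5.72 in white adipose tumours. The gap between the groups, from 5.72 to 5.78, was small beside the spread within either one. The means were 5.90 ± 0.16 (SD, n = 3) and 5.64 ± 0.14 (SD, n = 3), a difference of -0.26 (SE 0.11; 95% interval -0.53 to 0.02), or 1.20-fold. The limma adjusted p was 0.936 and the two-sided exact permutation p was 0.1, the smallest that 3 against 3 arrays can give. Groups were apart with white adipose lower for 3.97% of all genes. The deposited values of white adipose replicates 1 and 3 were identical, a repetition across arrays that 35.3% of all genes share. Fgf7 lay at percentile 46.8 of all genes by signal, and with no detection call used, part of its signal may be background.

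Fgf2, the basic fibroblast growth factor that stimulates fibroblasts and endothelial cells, stood at 5.21, 5.37 and 5.51 in non-adipose and at 5.25, 5.32 and 4.96 in white adipose tumours. White adipose replicate 3 was the lowest array and the other white adipose values lay within the non-adipose range. The difference was -0.19 (SE 0.12; 95% interval -0.49 to 0.11). Fgf2 lay at percentile 36.2 of all genes by signal, and no detection call was used, so its values may be background.

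Fgf1, the acidic fibroblast growth factor, which binds FGF receptors broadly and is needed for the remodelling of fat tissue, was even across all arrays but white adipose replicate 1. It stood at 6.45, 6.58 and 6.48 in non-adipose and at 5.97, 6.55 and 6.48 in white adipose tumours. The difference of -0.17 (SE 0.16; 95% interval -0.56 to 0.22) rested on that low array, and without it was 0.01.

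Fgfr1, the FGF receptor of mesenchymal cells, had nearly equal means of 6.57 ± 0.11 (SD, n = 3) and 6.55 ± 0.47 (SD, n = 3) that hid a wide spread in white adipose tumours. It stood at 6.44, 6.65 and 6.62 in non-adipose tumours, and at 7.09, 6.37 and 6.21 in white adipose tumours. White adipose replicate 1 was the highest of the 6 arrays and replicates 2 and 3 the lowest, as for Pdgfd. The difference was -0.01 (SE 0.23), and its 95% interval of -0.57 to 0.55 does not show that the sites were alike.

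**Figure D2:**
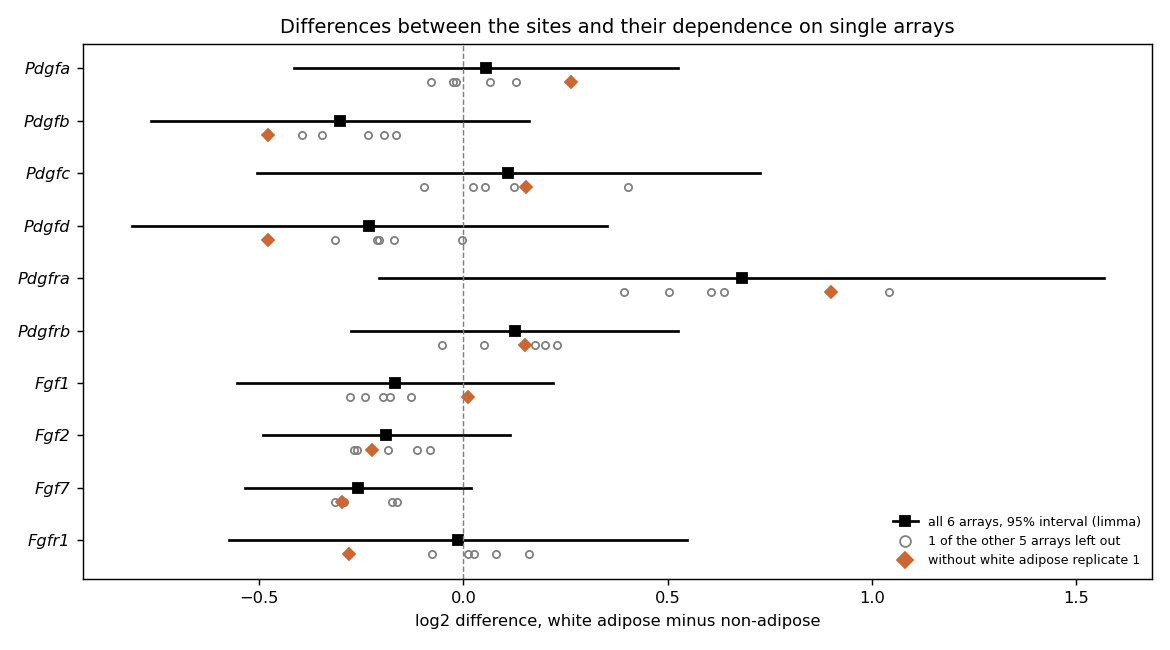
Log2 difference, white adipose minus non-adipose (horizontal axis), for each of the 10 genes: black squares and lines give the limma estimate and its 95% interval over all 6 arrays, and the symbols beneath give the estimate with 1 array left out, orange diamonds marking the one without white adipose replicate 1. Every interval contains 0, and for Pdgfa, Pdgfb, Pdgfd, Fgf1 and Fgfr1 the diamond is an extreme of its row.

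White adipose replicate 1 thus stood apart from the other 2 tumours of its site in several of these genes. It was also the array with skin epithelial markers at 8.55, and their part in these values was not tested. Without it, 3 of the 10 genes were at an unadjusted p under 0.05 by limma (Pdgfb, Pdgfd and Fgfr1), against 8.12% of all genes, and 0 passed when adjusted over all genes, as did 0% of all genes, the smallest adjusted p of the 10 being 0.581. The difference then was -0.48 (SE 0.15) for Pdgfb, -0.48 (SE 0.16) for Pdgfd, -0.28 (SE 0.10) for Fgfr1, 0.26 (SE 0.11) for Pdgfa and 0.90 (SE 0.39) for Pdgfra. White adipose replicates 2 and 3 lay apart from all 3 non-adipose arrays for 6 of the 10 genes, against 23.8% of all genes. They were higher for Pdgfa and Pdgfra, 2 of 10 against 11.7% of all genes, and lower for Pdgfb, Pdgfd, Fgf7 and Fgfr1, 4 of 10 against 12.1%. White adipose replicate 1 was singled out partly by the values of these same genes, so these counts are descriptions. Leaving out each other array in turn gave 0 or 1 of the 10 genes at an unadjusted limma p under 0.05. The share of all genes was then 2.89% to 5.29%.

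The marker lists of the cells that carry these receptors are given beside them. Fibroblast markers averaged 9.33, 9.34 and 9.47 over 10 genes in non-adipose tumours and 9.80, 9.32 and 9.23 in white adipose tumours. Pericyte and smooth muscle markers averaged 7.37, 7.20 and 7.49, and 7.56, 7.12 and 7.03, over 10 genes. The means of both lists were highest on white adipose replicate 1 and lowest on white adipose replicates 2 and 3. For fibroblasts the low end was narrow, at 9.32 against 9.33. Fgfr1 and Pdgfd divided the arrays the same way at both ends, while Pdgfra was highest on white adipose replicates 2 and 3. Single markers did not all follow their list mean. On white adipose replicate 1, Col1a1 (11.16) and Tagln (8.31) were at their highest, but Fap (5.41) and Kcnj8 (5.91) at their lowest. Tagln, Fap and Kcnj8 were named after their values were seen. For the fibroblast list 4 genes had a higher and 6 a lower mean in white adipose tumours, with Col1a1, the collagen I chain, between 10.02 and 11.16. For the pericyte list these counts were 3 and 7, and Rgs5, a pericyte marker, stood at 8.30, 7.94 and 8.52 in non-adipose and 7.96, 7.99 and 7.65 in white adipose tumours. Endothelial markers, of the cells that release the B chain, averaged 6.55 to 6.82 in non-adipose and 6.66 to 6.81 in white adipose tumours over 10 genes, with Pecam1 between 7.27 and 7.74. Platelet markers averaged 5.56 to 5.70 and 5.63 to 5.74 over 5 genes, and macrophage markers 8.91 to 8.95 and 8.80 to 8.89 over 9 genes. The part of these cells in the values of the ligands and receptors was not tested.

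**Figure D3:**
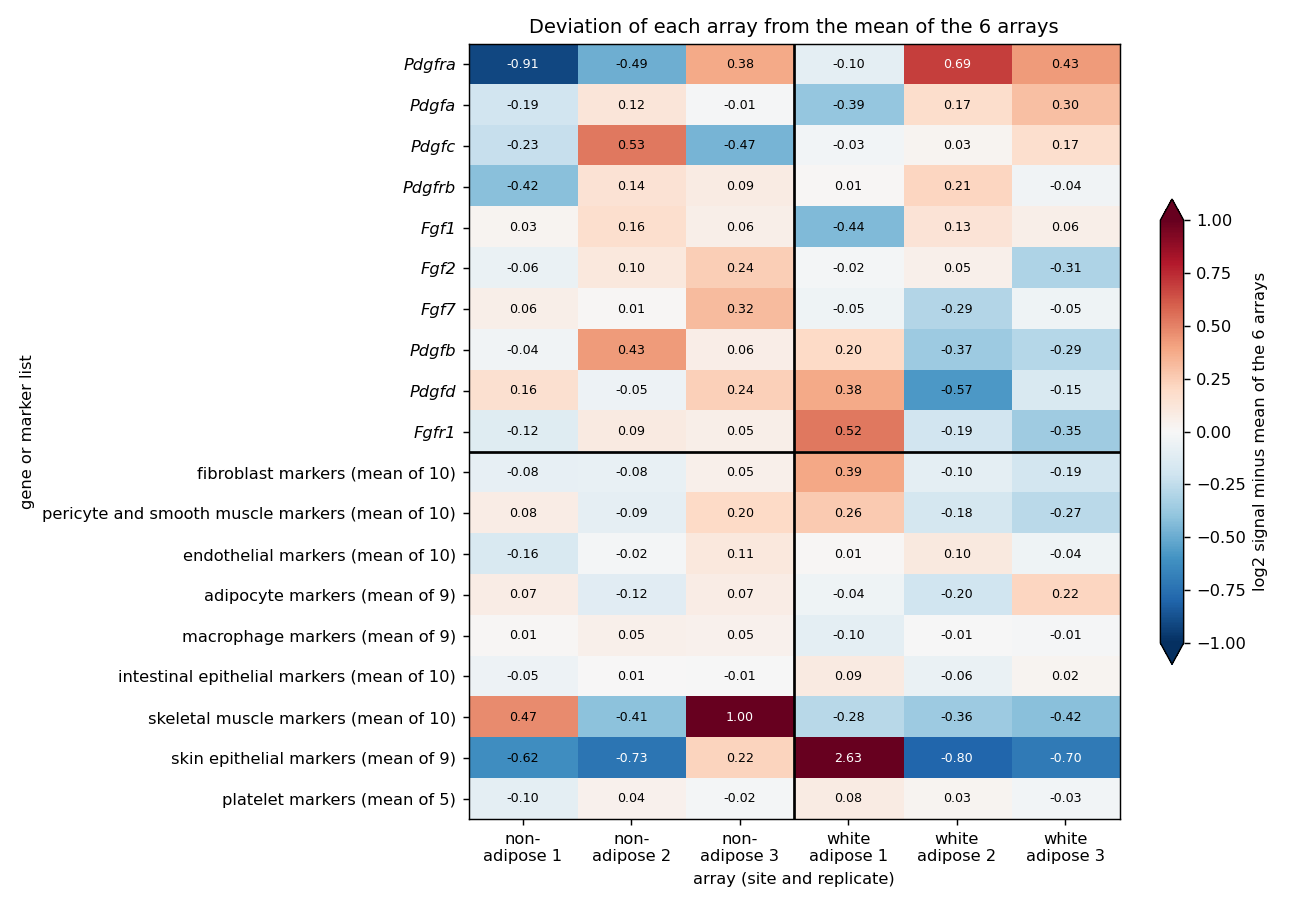
Deviation of each array (columns) from the mean of the 6 arrays, in log2 units, for the 10 genes (upper rows) and the mean of each marker list (lower rows); red is above and blue below the mean, the colour saturates at 1 and each cell prints its value. Skin epithelial markers deviate by 2.63 on white adipose replicate 1, where Fgfr1 deviates by 0.52 and Fgf1 by -0.44.

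The other genes of both pathways were described from 6 lists chosen by known role, with 76 of 82 genes measured. None passed the limma test adjusted over all genes. At an unadjusted p under 0.05 there were 3 lower and 0 higher in white adipose tumours, 3 of 76 against 3.79% of all genes, and the median difference over the 76 was 0.02. The 3 genes were Furin, Map2k2 and Egr1. Of the 76 genes, 5 had groups that were apart, these 3 and Fgfbp3 with white adipose lower and Crk with it higher, against 7.31% of all genes; Fgfbp3 and Crk were named after their values were seen. Furin, the protease that cleaves the A and B chains to their active form, stood at 9.11, 8.99 and 9.02 in non-adipose and 8.87, 8.69 and 8.82 in white adipose tumours, a difference of -0.25 (SE 0.07). Map2k2, a kinase above ERK, lay between 8.16 and 8.22 in non-adipose and between 7.98 and 8.11 in white adipose tumours, a difference of -0.16 (SE 0.06). Egr1, an early response factor switched on by these receptors and by many other stimuli, stood at 8.22, 8.18 and 8.40 against 8.11, 7.92 and 7.58, a difference of -0.40 (SE 0.14). For each of the 3 the limma adjusted p was 0.936.

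Of the 15 other FGF ligands, 9 had a higher and 6 a lower mean in white adipose tumours, and 0 were at an unadjusted p under 0.05. Their differences lay between -0.08 and 0.14. Fgf17 and Fgf5 had the smallest p among those with higher means, at 0.08 (SE 0.06) and 0.10 (SE 0.10). Fgf18 and Fgf9 had it among those with lower means, at -0.08 (SE 0.11) and -0.05 (SE 0.13). The 4 homologous factors that are not secreted and bind sodium channels were split evenly, 2 and 2, with Fgf14 at 0.30 (SE 0.16), Fgf13 at 0.08 (SE 0.09), Fgf11 at -0.06 (SE 0.17) and Fgf12 at -0.05 (SE 0.10). By signal, Fgf5, Fgf9, Fgf14, Fgf13 and Fgf12 lay at percentiles 30.0, 25.9, 24.0, 22.4 and 27.4 of all genes. No detection call was used, so their values may be background. Fgf17, Fgf18 and Fgf11 lay at percentiles 57.9, 47.8 and 65.2.

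Of the 9 other FGF receptors and co-receptors, 7 had higher and 2 lower means, against 11033 and 11147 over all genes. The median difference was 0.14, and 0 were at an unadjusted p under 0.05. Without white adipose replicate 1 the median was 0.02. Fgfr2 and Fgfr3, named after their values were seen, were at 0.19 and 0.17 with all 6 arrays. They were at -0.29 and -0.01 without that array. Fgfrl1, a receptor that lacks the kinase, was at 0.34 (SE 0.21), and the syndecan Sdc1, a heparan sulphate carrier, at 0.15 (SE 0.08). Sdc4, another syndecan, was at -0.20 (SE 0.14) and Klb, the co-receptor for Fgf21, at -0.19 (SE 0.19). Klb lay at percentile 25.6 of all genes by signal, so its values too may be background.

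Of the 14 genes for storage, release and cleavage of the ligands, 8 had higher and 6 lower means. Next to Furin, Plau, the urokinase that can activate the D chain, was at -0.32 (SE 0.17). Plat, the tissue plasminogen activator that cleaves the C chain, was at 0.15 (SE 0.09), and Nrp1, a co-receptor for several growth factors, at 0.21 (SE 0.15).

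Of the 19 measured adaptors and kinases, 9 had higher and 10 lower means, and the 6 other listed genes were not analysed here. Pik3r1, the regulatory subunit of PI3 kinase, was at 0.50 (SE 0.43), Braf, a kinase below Ras, at 0.09 (SE 0.08) and Map2k1, the partner of Map2k2, at -0.18 (SE 0.13). Of the 15 targets and feedback inhibitors, 8 had higher and 7 lower means, with a median difference of 0.01. The feedback inhibitors Il17rd, which restrains FGF signalling, and Spry1 were at 0.52 (SE 0.37) and 0.24 (SE 0.21), and Dusp5, a phosphatase of ERK, at -0.34 (SE 0.14).

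Without white adipose replicate 1, 9 of the 76 genes were at an unadjusted p under 0.05 by limma, against 8.12% of all genes, and 0% of all genes passed when adjusted. Of the 9, 4 had higher means in white adipose tumours, Pik3r1 at 0.94, Il17rd at 0.91, Fgfrl1 at 0.54 and Spry1 at 0.47. The other 5 had lower means: Sulf1, which trims heparan sulphate, at -0.58, Egr1 at -0.52, the growth factor target Myc at -0.44, Hspg2, the matrix proteoglycan perlecan, at -0.34 and Furin at -0.29. Sulf1, Myc and Hspg2 were named after their values were seen, and Sulf1 was at 0.04 with all 6 arrays. The median difference of the storage, release and cleavage genes was -0.09 without that array and 0.02 with it, and that of the other receptors and co-receptors 0.02 and 0.14.

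**Figure D4:**
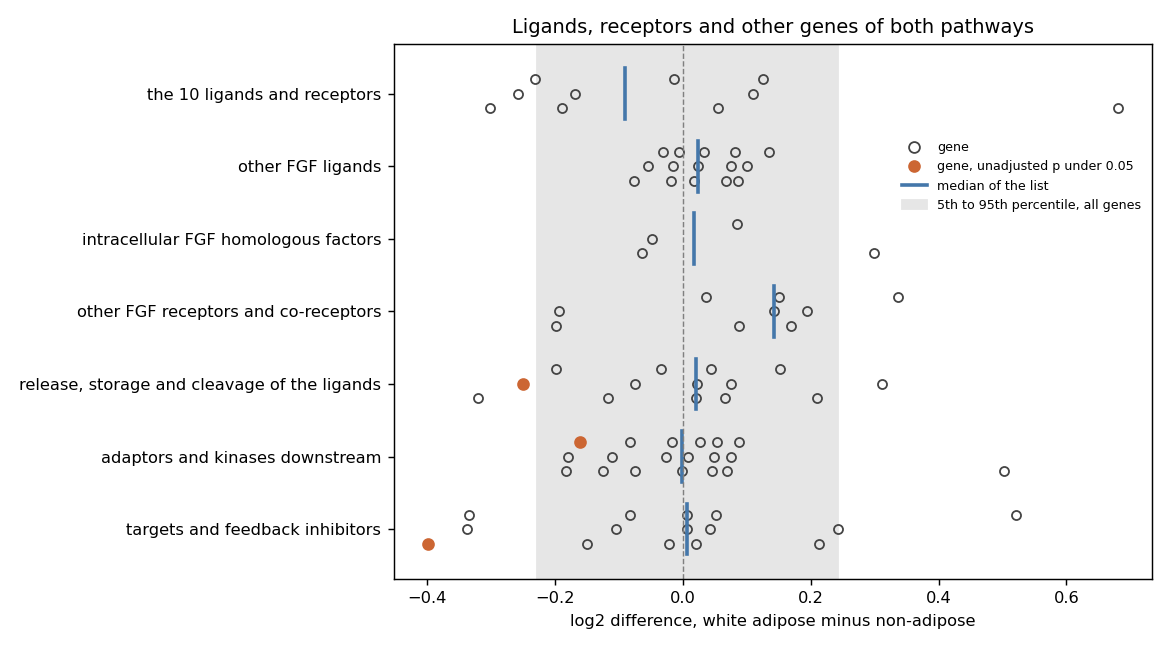
Log2 difference, white adipose minus non-adipose (horizontal axis), of the 10 ligands and receptors and of the 76 other pathway genes by list; each circle is a gene, filled circles are at an unadjusted limma p under 0.05, blue lines are list medians and the grey band spans the 5th to the 95th percentile of all genes, -0.23 to 0.24. Pdgfra lies farthest to the right, and the 3 filled circles are Furin, Map2k2 and Egr1.

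The genes whose pattern over the 6 arrays was most like that of 4 of the genes were sought among 10555 or 10556 genes above the median signal, by Pearson r. For Pdgfra they were Hook3 (r = 0.993), Atg9b (0.991) and L3mbtl3 (0.991). For Pdgfrb they were Pttg1ip (0.991), Heatr5a (0.990) and St3gal2 (0.988), and for Fgfr1 they were Blvrb (0.993), Tbc1d32 (0.991) and F2r (0.990). For Fgf7 they were Gtf3c6 (0.996), Nsun2 (0.986) and Ccnj (0.981). With only 6 arrays such values are common: 48 genes exceeded an r of 0.95 with Pdgfra, 51 with Pdgfrb, 57 with Fgfr1 and 20 with Fgf7. All of these values come from the same 6 arrays, so the coefficients are descriptions.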

How the data were processed

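Values came from a deposited table of 41345 probe sets on 6 arrays, with 0 columns of other samples and 0 missing values. Their range of 0.973 to 13.6, with array medians of 5.66 to 5.69, is that of log2 signals, and the deposited values were used as such. The authors made them with Affymetrix Expression Console, per the submitters' processing notes; settings and normalization were not given in the sources used here. Total RNA was labelled as biotin cDNA, per the labels' protocols. Detection calls and scan dates were not used.

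Of the probe sets, 23521 had 1 gene symbol; for a gene with several, the one with the highest mean was kept. The main test was limma 3.58.1 in R 4.3.3 (lmFit, eBayes, all 6 arrays, no block), with Benjamini-Hochberg adjustment over all 22180 genes and a threshold of 0.05; it was tested on simulated data. The number of arrays limits the precision, and p-values rest on the spread between 3 tumours a site. The genes, lists and tests were chosen with earlier results of these data known. The rule for naming genes took all 10 ligands and receptors, the 2 genes of smallest p in each direction of a pathway list, the 3 most alike genes for 4 of the 10, and Adipoq, Rgs5, Col1a1, Pecam1 and Epcam among the markers; Krt8 and Krt18 were named after their values were seen.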

Additional observations from a re-analysis of the deposited data

How the results depend on the processing

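Over the 10 genes and 13 alternatives (array medians subtracted, quantile normalization, the lowest 25% of genes by signal left out, all probe sets averaged, trend and robust, array weights, the replicate number as a block, and each array left out), 120 differences kept their direction and 10 reversed, all with 1 array left out; none passed the adjusted threshold. With each replicate left out in turn, the difference ran from -0.080 to 0.26 for Pdgfa, -0.10 to 0.40 for Pdgfc, -0.052 to 0.23 for Pdgfrb, -0.28 to 0.012 for Fgf1 and -0.28 to 0.16 for Fgfr1, which changed sign, and from 0.39 to 1.04 for Pdgfra, -0.48 to -0.16 for Pdgfb, -0.48 to -0.0025 for Pdgfd, -0.27 to -0.08 for Fgf2 and -0.32 to -0.16 for Fgf7, which did not. The count at an unadjusted p under 0.05, 0 with all arrays (3.79% of all genes), ran from 0 to 3. The count of genes whose groups did not overlap, 1 with all arrays (7.31% of all genes), ran from 1 to 6. Both were highest without white adipose replicate 1, where the shares of all genes were 8.12% and 23.8%. The count of pathway genes at an unadjusted p under 0.05, tried after the data were seen, was 3 (0 higher, 3 lower; 3.79% of all genes). It ran from 1 without white adipose replicate 3 (3.04% of all genes) to 9 without white adipose replicate 1 (4 higher, 5 lower; 8.12%). Array weights gave 2 of the 10 genes (Pdgfb and Pdgfra) and 8 pathway genes, against 7.31% of all genes, with the lowest weight of 0.43 on white adipose replicate 1. The replicate block gave 2 of the 10 genes (Pdgfra and Fgf7) and 5 pathway genes, against 4.87% of all genes, with 0 past the adjusted threshold. Samples of the same number deviated together only weakly, with correlations over genes of 0.14, 0.06 and 0.06. Those between different numbers ran from -0.18 to 0.09, the highest being non-adipose replicate 3 with white adipose replicate 2. These values do not settle whether the numbers mark pairs, and the main test was set with no block. The causes of these moves were not tested.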

Other observations

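Several other genes were chosen after their values were seen, some of them with a pattern over the arrays like that of Pdgfra. Lum, the matrix proteoglycan lumican of fibroblasts, stood at 9.32, 9.38 and 10.48 on non-adipose replicates 1, 2 and 3 and at 10.10, 11.35 and 10.70 on white adipose replicates 1, 2 and 3, which puts the 6 arrays in the same order as Pdgfra. Pik3r1, which encodes the PI3 kinase subunit that docks on PDGF receptors, stood at 8.54, 8.52 and 9.40, and at 8.44, 9.81 and 9.73. Col1a2, another collagen I chain, was highest on white adipose replicate 1 and lowest on white adipose replicates 2 and 3. It stood at 9.68, 9.63 and 9.02, and at 10.44, 8.21 and 8.39. Postn, the matrix protein periostin, gave the same division, at 10.81, 10.73 and 10.48, and at 11.91, 9.82 and 10.04. Pdgfra was highest on white adipose replicates 2 and 3, but on white adipose replicate 1, at 10.35, it was neither highest nor lowest. Genes of the fibroblast list thus divided the arrays in different ways. The limma adjusted p between the sites was 0.936 or more for each of these 4 genes.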
